A study of Drosophila melanogaster with 53 samples.

Results

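The 10 genes described here encode the factors that hold RNA polymerase II (Pol II) in promoter-proximal pausing and let it go. They are the 4 subunits of the negative elongation factor NELF (Nelf-A, NELF-B, TH1 and Nelf-E), the pair that forms DSIF (Spt5 and spt4), the kinase and cyclin of P-TEFb (Cdk9 and CycT), the acetyltransferase CBP (nej) and GAGA factor (Trl). They were taken by gene name from the deposited expression table, where all 10 were found among 15598 genes, and their 24 transcripts were taken from the table of 28704 transcripts. The values are RNA-seq levels of polyA RNA in Drosophila melanogaster Schneider line 2 (S2) cells that received 20-hydroxyecdysone (20E), the steroid hormone of the insect moult, at 0.3 μM for 1 h, or the same amount of its solvent DMSO for the same time. The labels list 2 RNA-seq libraries per condition, neither treated with dsRNA, and their characteristics give no difference between conditions other than the hormone. The remaining samples of the study, among 53 in all, were not analysed here. S2 is an established line of embryonic origin with features of hemocytes, the blood cells of the fly, so every value stands for 1 cultured line and not for a tissue.

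Shortly after initiation Pol II stops close to many promoters, held there by DSIF and NELF. P-TEFb then phosphorylates NELF, the Spt5 subunit of DSIF and the tail of Pol II, after which NELF leaves and DSIF travels on with the polymerase as an elongation factor. GAGA factor binds GA-rich repeats and keeps the chromatin of many paused Drosophila promoters open, and CBP acetylates histones and other proteins at promoters and enhancers.

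Each condition has a single deposited column of FPKM (fragments mapped to a transcript, scaled to its length and to the mapped total), with a lower and an upper confidence bound for genes and none for transcripts. There is therefore no spread between libraries, and no SD, number of replicates or p-value is attached to any value below. Bounds are called apart where the lower bound of one value lies above the upper bound of the other. FPKM is per length, so that the levels of different genes can be set side by side, though less surely where a transcript is short. In bulk RNA, fewer cells that use a gene and less of its RNA per cell cannot be told apart.

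RNA of all 10 genes was present in both conditions, and their levels after 1 h of 20E lay within the bounds of those in DMSO. These are levels of polyA RNA, and rates of transcription were not examined here. The members ran from 8.11 FPKM for Nelf-E to 190 FPKM for spt4 in DMSO, and from 8.57 to 190 FPKM for the same genes in 20E. Their order from highest to lowest was the same in both conditions, namely spt4, Spt5, Trl, TH1, CycT, Nelf-A, Cdk9, nej, NELF-B and Nelf-E. Of the 9 neighbouring pairs in that order, 7 had overlapping bounds in each condition, and only the steps from Trl down to TH1 and from NELF-B down to Nelf-E did not. By the deposited positions, whose genome build is not named in the tables, NELF-B, TH1 and nej are on chromosome X, Nelf-E, CycT and Trl on 3L, Nelf-A on 3R, and Spt5, spt4 and Cdk9 on 2R. The longest of these loci with no other gene in it is that of nej, at chrX:9559475-9581099. In DMSO 6 of the 10 were at or above the median of the 7703 genes that reached 1 FPKM in a condition, 26.7 FPKM.

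**Figure D1:**
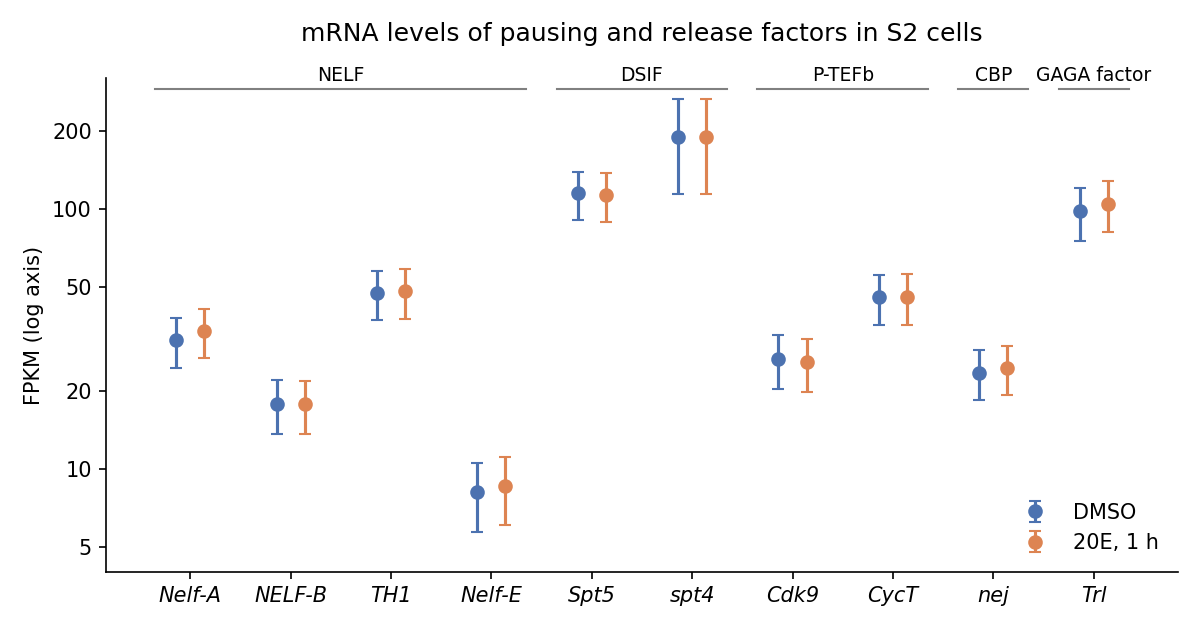
Level of each of the 10 genes in FPKM on a log axis, in DMSO (blue) and after 1 h of 20E (orange), with points for the deposited value and bars for its deposited confidence bounds. In every gene the bars of the 2 conditions overlap, while the genes themselves are spread from 8.11 FPKM (Nelf-E) to 190 FPKM (spt4) in DMSO.

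The mRNAs of the 4 NELF subunits were present at unequal levels. TH1, which encodes the NELF-D subunit of the core of the complex, was the highest at 47.6 FPKM (bounds 37.3 to 57.9) in DMSO and 48.3 FPKM (37.8 to 58.7) in 20E. Nelf-A, whose product contacts Pol II, followed with 31.2 FPKM (24.5 to 37.9) in DMSO and 33.9 FPKM (26.6 to 41.2) in 20E. NELF-B, another core subunit, stood at 17.8 FPKM (13.6 to 21.9) in DMSO and 17.7 FPKM (13.6 to 21.9) in 20E. These 3 genes kept their places, and none of them left its bounds.

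Nelf-E, the subunit with an RNA-binding domain, was the lowest of the 10 genes, at 8.11 FPKM (5.69 to 10.5) in DMSO and 8.57 FPKM (6.06 to 11.1) in 20E. Expressed as parts of the summed FPKM of the 4 subunits, 105 in DMSO and 108 in 20E, TH1 made up 45.5% and 44.5%, Nelf-A 29.8% and 31.2%, NELF-B 17.0% and 16.3%, and Nelf-E 7.74% and 7.90%. The division of NELF mRNA among the subunits was thus nearly the same before and after the hormone. TH1 was 5.87-fold above Nelf-E in DMSO and 5.63-fold in 20E, and with each bound set against the opposite bound of the other gene the ratio ran from 3.54 to 10.2 in DMSO and from 3.41 to 9.68 in 20E. Of the 6 pairs of NELF subunits, 5 had bounds apart in each condition. The exception was TH1 against Nelf-A, with a ratio of 1.52 in DMSO and 1.42 in 20E. The deposited locus of Nelf-E also holds CG43078, with 0.0655 FPKM in DMSO against 0.0348 FPKM in 20E, far under Nelf-E itself.

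DSIF had the highest mRNA values of the group, though the bounds of both its genes overlapped those of Trl in each condition. Spt5, the large subunit that P-TEFb phosphorylates, was at 115 FPKM (90.5 to 139) in DMSO and 114 FPKM (89.3 to 138) in 20E. The small subunit gene spt4 was at 190 FPKM (115 to 265) in DMSO and at 190 FPKM (114 to 267) in 20E. The ratio of spt4 to Spt5 was 1.65 in DMSO and 1.68 in 20E, with overlapping bounds in both conditions, so that the deposited precision does not separate them. The upper bound of spt4 lay 39.5% above its value in DMSO, against 21.3% to 29.9% for the other 9 genes. Its transcript has 457 bases, the shortest of the 24. Low FPKM values of longer genes with 1 transcript fitted best with 200 bases taken off the length in DMSO and 180 in 20E. Such a correction would raise a transcript this short the most, and its part in the ratio of spt4 to Spt5 was not tested. The deposited locus of spt4 also holds CG33671, with 63.7 FPKM in DMSO against 60.8 FPKM in 20E. Whether reads were counted by strand is not given, and any reads shared between these neighbours were not tested. Spt5 exceeded every NELF subunit, from 2.42-fold over TH1 to 14.2-fold over Nelf-E in DMSO, and from 2.35-fold to 13.2-fold in 20E, each with bounds apart.

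P-TEFb had more cyclin than kinase mRNA in both conditions. CycT, the cyclin T that activates the kinase, was at 45.7 FPKM (35.7 to 55.8) in DMSO and 46.0 FPKM (35.8 to 56.2) in 20E. Cdk9, the kinase, was at 26.4 FPKM (20.3 to 32.6) in DMSO and 25.7 FPKM (19.7 to 31.7) in 20E. CycT was 1.73-fold above Cdk9 in DMSO and 1.79-fold in 20E, with bounds apart in both. This holds for CycT summed over its 4 transcripts. Its highest transcript alone was 1.07 times Cdk9 in DMSO and 0.975 times Cdk9 in 20E. CycT and TH1 could not be separated, at a ratio of 0.961 in DMSO and 0.953 in 20E with overlapping bounds.

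The 2 promoter-linked factors stood far apart. Trl was at 98.2 FPKM (75.6 to 121) in DMSO and 105 FPKM (81.4 to 129) in 20E. The CBP gene nej was at 23.5 FPKM (18.4 to 28.5) in DMSO and 24.5 FPKM (19.2 to 29.8) in 20E. Trl was 4.18-fold above nej in DMSO and 4.28-fold in 20E, with bounds apart. The deposited locus of Trl also holds CG33260, at 8.06 FPKM in DMSO, and CG42507, at 0.624 FPKM in DMSO.

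Of the 10 complexes listed, NELF had the third widest spread between its highest and lowest gene in DMSO, 5.87-fold, although such a spread depends on how many genes a complex has. DSIF spanned 1.65-fold, P-TEFb 1.73-fold and the cap-binding pair 2.10-fold. Both genes of FACT, the histone chaperone made of dre4 and Ssrp, were nearly equal, with 101 and 104 FPKM in DMSO and a ratio of 1.03. The PAF complex, which travels with elongating Pol II, spanned 2.19-fold from Ski8 (CG3909, 31.9 FPKM) to Ctr9 (CG2469, 69.9 FPKM). The CDK-activating kinase of TFIIH spanned 3.04-fold from Cdk7 (21.4 FPKM) to Mat1 (65.2 FPKM), and the super elongation complex 4.03-fold from lilli (9.75 FPKM) to Eaf (39.3 FPKM). Wider than NELF were Elongin, with 7.15-fold from EloA (71.4 FPKM) to Elongin-C (510 FPKM), and the 8 Integrator genes listed, with 20.3-fold from IntS8 (8.21 FPKM) to IntS11 (167 FPKM), the endonuclease of the complex. Between opposite bounds the spread of NELF ran from 3.54 to 10.2 in DMSO, which takes in the values of Elongin and of the super elongation complex. The third place of NELF is thus not settled by the deposited precision. The mRNA levels say nothing of protein amounts, which were not measured in these tables.

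**Figure D2:**
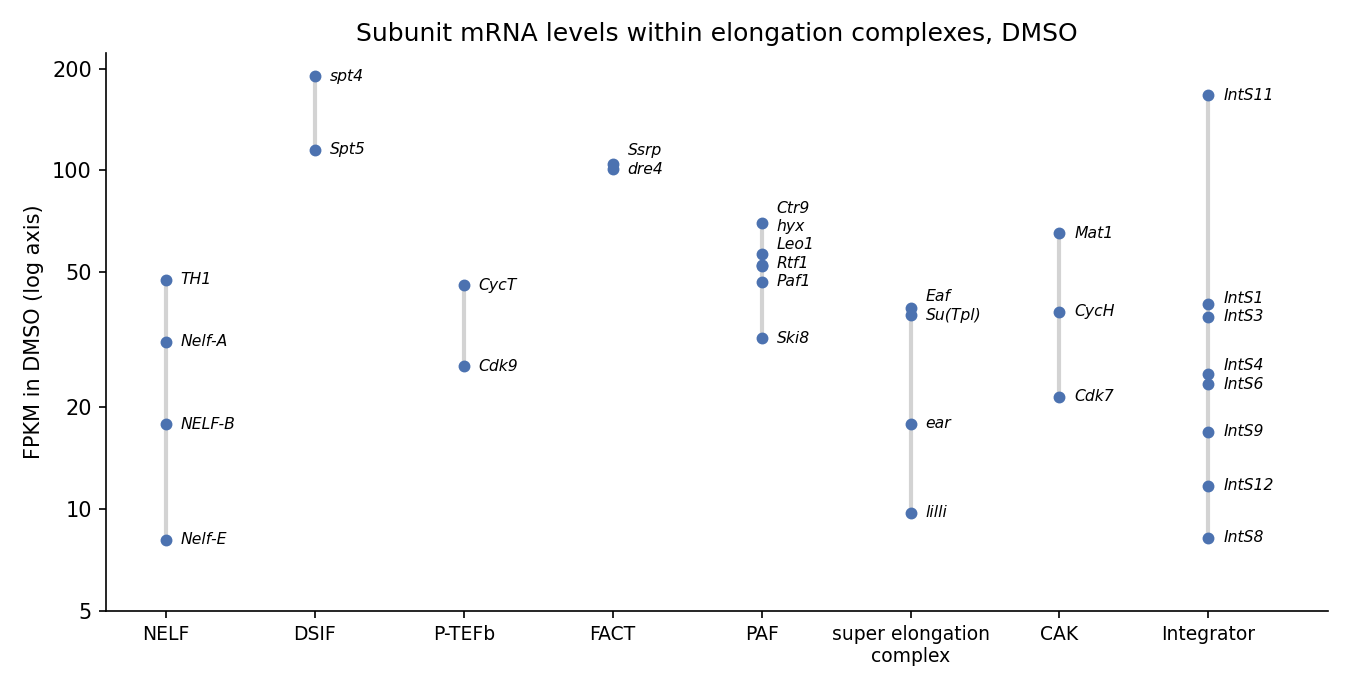
Level in DMSO, in FPKM on a log axis, of each listed subunit gene of 8 elongation complexes, with 1 point per gene, a grey line from the lowest to the highest, and gene names written in order of level beside the points. NELF spans 5.87-fold, FACT 1.03-fold and Integrator 20.3-fold.

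After 1 h of 20E none of the 10 genes had bounds apart from its DMSO value, where 0.974% of the 7703 genes at 1 FPKM or more did. None passed a 1.5-fold change of FPKM + 1 either, against 2.05% of those genes. With 10 genes and backgrounds this low, counts of 0 do not set the members apart from other genes. On the log2((20E + 1) / (DMSO + 1)) scale, the median change was 0.01 over the members and 0.0022 over the 7703 genes, and the median size of the change, regardless of sign, was 0.03 against 0.082. In DMSO 19.7% of the 7703 genes were under the lowest member, and no background matched for level was computed. The smaller median size therefore does not show the members to be steadier than genes of like level. Of the members 7 were higher and 3 lower in 20E.

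The largest of these differences was that of Nelf-A, with a log2 change of 0.12, and 63.3% of the 7703 genes differed by less. It was followed by Trl with 0.10, Nelf-E with 0.07 and nej with 0.06. TH1 had a log2 change of 0.02, CycT of 0.0084 and spt4 of 0.0034. The values of the remaining 3 were lower in 20E, by a log2 change of -0.0028 for NELF-B, -0.017 for Spt5 and -0.04 for Cdk9. All of these lie well inside the deposited bounds, whose upper limits were 21.3% or more above the value in every member, whereas the largest difference, that of Nelf-A, was 8.59% of the DMSO level.

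The same columns held higher values for genes of the hormone response. The 5 known 20E targets examined all had bounds apart, as did 64 of the 7703 genes in the upward direction. They were chosen with earlier results of these data known, so they are a description and not an independent check. Eip74EF, an ETS factor of the early response, went from 13.9 FPKM (10.8 to 16.9) to 58.3 FPKM (45.8 to 70.8), and the nuclear receptor gene Eip75B from 52.8 FPKM (41.2 to 64.3) to 145 FPKM (112 to 177). The bZIP factor gene vri went from 12.8 to 126 FPKM, the zinc finger factor gene br from 6.98 to 61.3 FPKM, and the nuclear receptor gene Hr46 from 0.0834 to 8.14 FPKM.

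**Figure D3:**
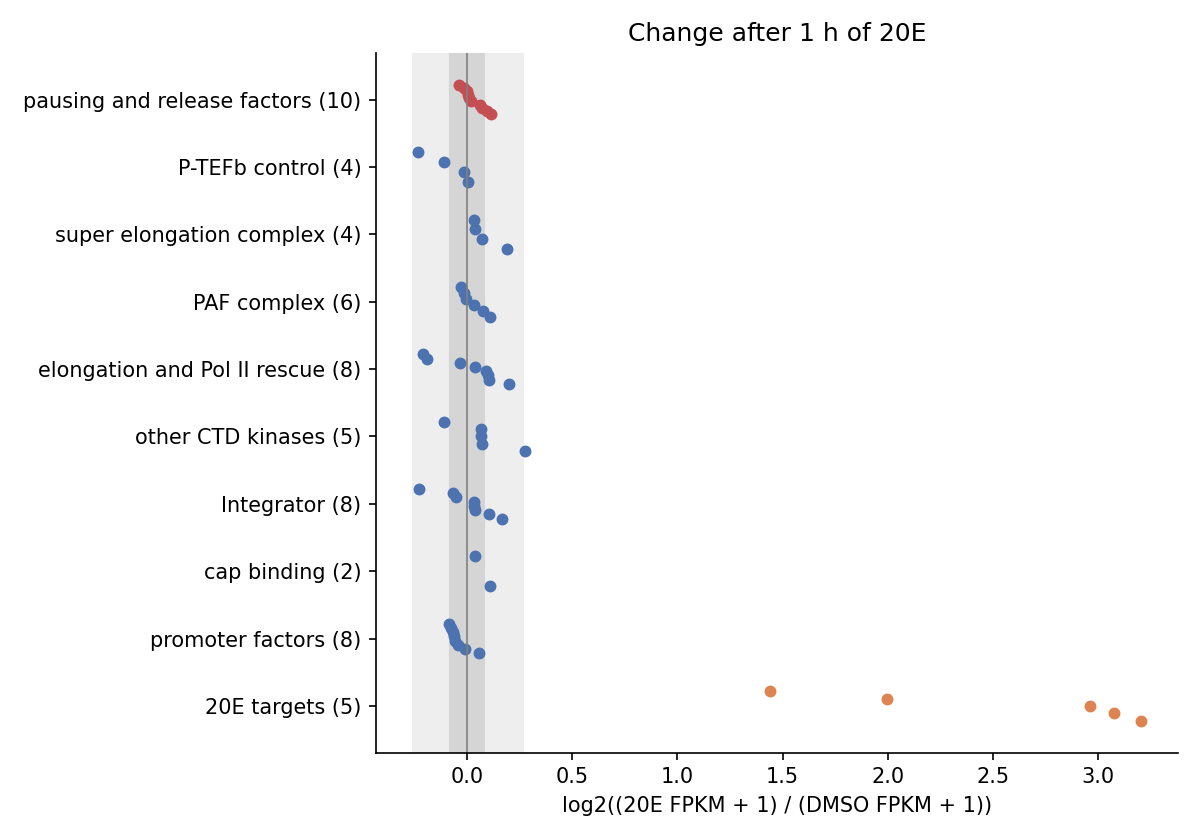
Log2 change of FPKM + 1 in 20E against DMSO, with 1 point per gene, for the 10 pausing and release factors (red), 8 lists of other elongation and promoter factors (blue) and 5 known 20E targets (orange). The dark band holds the central 50% and the light band the central 90% of the 7703 genes at 1 FPKM or more. The 10 members lie between -0.04 and 0.12 and the 5 targets between 1.44 and 3.20.

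All 45 listed genes of the pathway outside the members were found and reached 1 FPKM. None had bounds apart, against 0.974% of the 7703 genes, and none passed 1.5-fold, against 2.05%, so that counts of 0 are near the background here too. Of the 45 genes 25 were higher and 20 lower in 20E, with a median log2 change of 0.03, and of the 7703 genes 3923 were higher and 3780 lower. The highest log2 change was 0.28, for CycH, the cyclin of the CDK-activating kinase, at 38.3 FPKM (29.3 to 47.3) in DMSO and 46.6 FPKM (35.8 to 57.4) in 20E. Next came Elongin-C with 0.20 and Eaf, a partner of the elongation factor ELL, with 0.19. The lowest was -0.23 for CG3508, the fly Hexim that holds P-TEFb inactive, at 18.8 FPKM (13.4 to 24.1) in DMSO and 15.8 FPKM (11.1 to 20.5) in 20E. IntS3 also stood at -0.23, from 37.0 to 31.4 FPKM, and Gdown1 (CG42487) at -0.21, from 7.16 to 6.05 FPKM. By list, 1 of the 4 regulators of P-TEFb was higher in 20E, as were all 4 super elongation complex genes, 3 of 6 PAF complex genes, 5 of 8 elongation and rescue factors, 4 of 5 other kinases of the Pol II tail, 5 of 8 Integrator genes, both cap-binding genes and 1 of 8 promoter factors. The remaining genes of each list were lower, and the bounds overlapped in every one of the 45.

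The 3 genes outside the lists whose log2(FPKM + 1) in the 2 conditions lay nearest to the median of the NELF subunits, 24.5 FPKM in DMSO and 25.8 FPKM in 20E, were CG9601 with 23.6 and 24.5 FPKM, CG5589 with 23.6 and 24.7 FPKM, and z (zeste, a DNA-binding protein) with 23.6 and 24.7 FPKM. With only 2 conditions such likeness is common, and 147 genes lay within a distance of 0.1.

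The label of the cells was checked against marker genes. Of 9 hemocyte markers, 7 were at 1 FPKM or more in both conditions, and Hml and NimC1 were under it, with summed levels of 400 FPKM in each condition. Of 14 markers of neurons, glia, muscle, fat body and germ line, 3 were at 1 FPKM or more (elav, Mef2 and bam) and 11 were under it, among them repo, Mhc, vas and nos, with sums of 54.0 FPKM in DMSO and 60.1 FPKM in 20E. Of all 15598 genes, 7703 reached 1 FPKM in a condition. In DMSO bam (26.4 FPKM) and Mef2 (22.6 FPKM) stood above the hemocyte markers eater, Ppn (5.24 FPKM) and vkg (3.24 FPKM). The hemocyte markers crq, srp, Pxn and ush were higher, at 66.9 to 117 FPKM in DMSO. The phagocytic receptor gene eater was the single marker with bounds apart, at 8.20 FPKM (6.21 to 10.2) in DMSO and 13.8 FPKM (10.6 to 17.0) in 20E. Its part in the members' values was not tested.

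At the level of transcripts the members fell into 2 kinds. All 4 NELF genes, both DSIF genes and Cdk9 have 1 listed transcript each, so their share cannot move. The other 3 have several, 4 for CycT, 4 for nej and 9 for Trl. For the 3613 genes with several transcripts and 1 FPKM or more in both conditions, the largest change of any transcript's share of its gene's FPKM had a median of 4.96 percentage points, and in 27.5% it was 10 points or more. Of the 3 members 1 moved this far, namely nej with 37.1 points, while CycT moved by 7.65 points and Trl by 6.91 points. All 3 moved by 5 points or more, as did 49.7% of the 3613 genes. The leading transcript was the same in both conditions in all 3, and it differed in 10.3% of the 3613 genes.

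**Figure D4:**
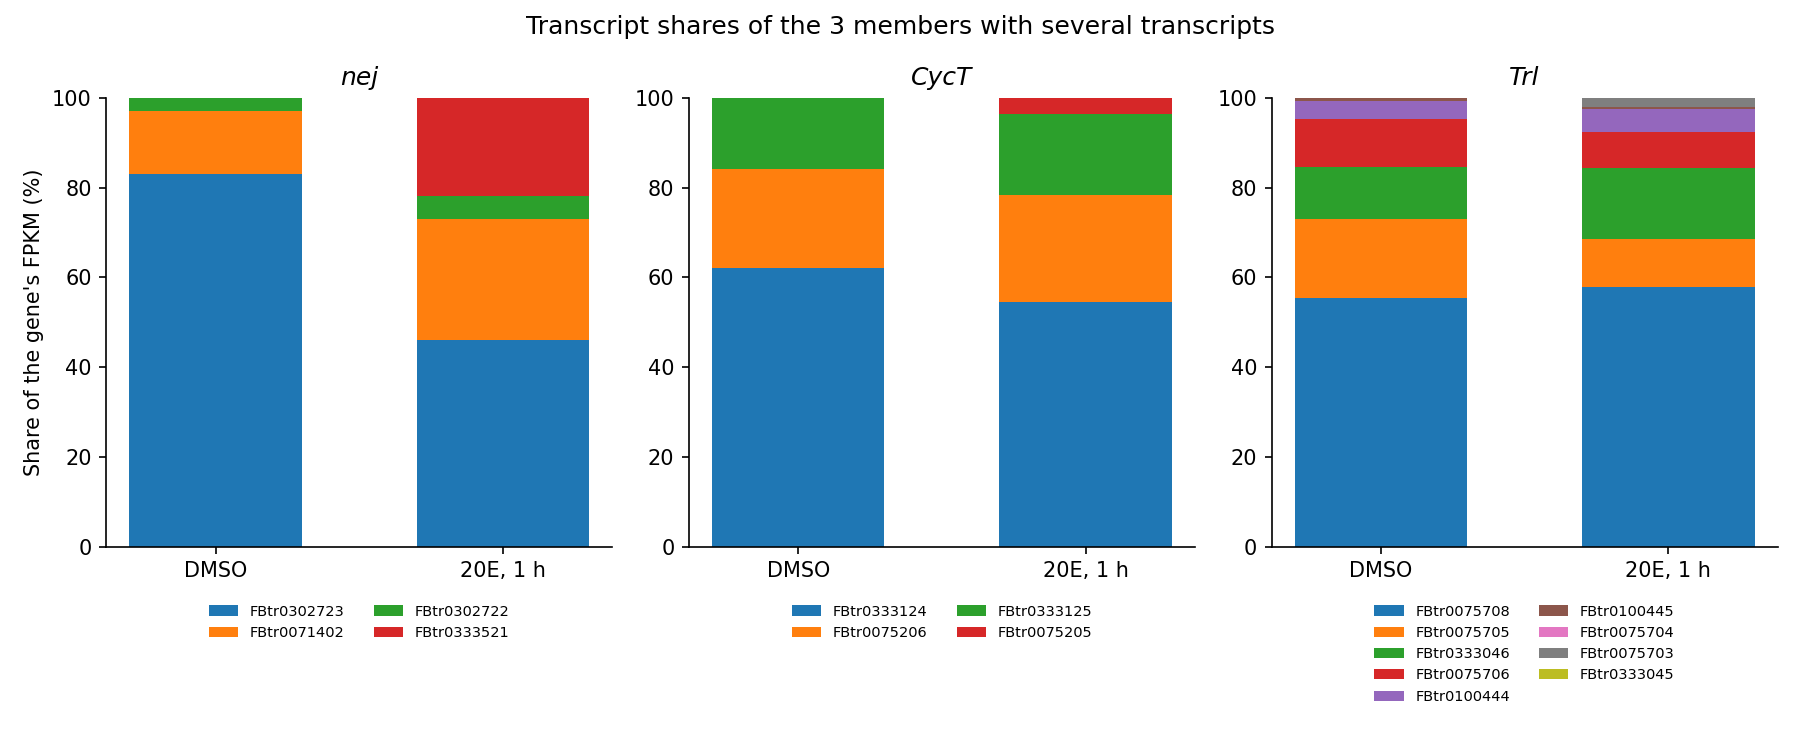
Share of each listed transcript in the FPKM of its gene, in percent, in DMSO and after 1 h of 20E, for nej, CycT and Trl, with 1 colour per transcript within a panel. In nej the leading transcript goes from 83.1% to 46.0% and FBtr0333521 from near 0 to 21.9%, whereas the leading transcript of Trl is at 55.4% and 57.9%.

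The CBP gene nej combined a steady gene level with a different make-up of transcripts. Its leading transcript FBtr0302723 had 19.5 FPKM in DMSO against 11.3 FPKM in 20E, a ratio of 0.578, and made up 83.1% and 46.0% of the gene. FBtr0071402 stood at 3.31 and 6.64 FPKM, a ratio of 2.01, and FBtr0302722 at 0.658 and 1.24 FPKM, a ratio of 1.88. FBtr0333521 was listed near 0 in DMSO, at 0.000288 FPKM, and was at 5.36 FPKM in 20E, 21.9% of the gene. The lower value of the leading transcript was accompanied by higher values of the other 3, which together went from 3.97 to 13.2 FPKM, while the gene as a whole was at 23.5 and 24.5 FPKM. A shift of this size was found in 2.35% of the 3613 genes, in 2.21% of the 453 genes with 4 transcripts, and in 1.42% of the 2321 genes at 20 FPKM or more in both conditions.

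The 4 transcripts of nej differ mainly at their ends. In the BDGP6 annotation FBtr0302723 has the most upstream start, FBtr0333521 starts 408 genomic bases further on, and FBtr0071402 and FBtr0302722 share a start 1399 bases from the first. At the other end FBtr0302723 reaches furthest, FBtr0333521 stops 231 bases before it, and the remaining pair stops 4073 bases before it. The transcripts from the third start, which are also the ones with the early end, made up 16.9% of the gene in DMSO and 32.2% in 20E. As starts and ends go together in these models, a difference in start and a difference in end cannot be told apart from the shares. The coding sequences are nearly alike, with 3276 amino acids for FBtr0302723 and FBtr0071402, 3282 for FBtr0302722 and 3266 for FBtr0333521. The form of 3276 amino acids made up 97.2% in DMSO and 73.1% in 20E, and the form of 3266, which lacks 30 coding bases of the leading one, made up the 21.9% given above.

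The transcripts differ in how well they can be told apart. FBtr0302723 has 4161 exonic bases that FBtr0071402 lacks, and FBtr0333521 has 3862, so the division between the long and the early-ending transcripts rests on long stretches. By that division the long ones made up 83.1% of the gene in DMSO against 67.8% after the hormone, or 15.2 points less. For scale, the largest change of a single transcript's share was 15 points or more in 15.6% of the 3613 genes. The 2.35% given above belongs to the shift of the leading transcript and not to this division. Within each class far fewer bases differ. FBtr0333521 has 15400 bases, of which 15380 are also exonic in FBtr0302723 and 20 are its own. FBtr0302723 has 319 bases that no other nej transcript holds, FBtr0071402 has 47 and FBtr0302722 has 18. The division between FBtr0302723 and FBtr0333521, and that between FBtr0071402 and FBtr0302722, therefore rest on few bases apart from the splice junctions, and transcripts carry no deposited bounds. The part of this overlap in the shift was not tested, and the 37.1 points are a description of 1 pair of columns. FBtr0302723 is alone in its start site and in its 3′ end, so pooling by either leaves its shift as it is. Pooled by coding form, where it shares a class with FBtr0071402, the largest shift was 24.1 points, which 2.94% of 1702 genes matched or exceeded.

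**Figure D5:**
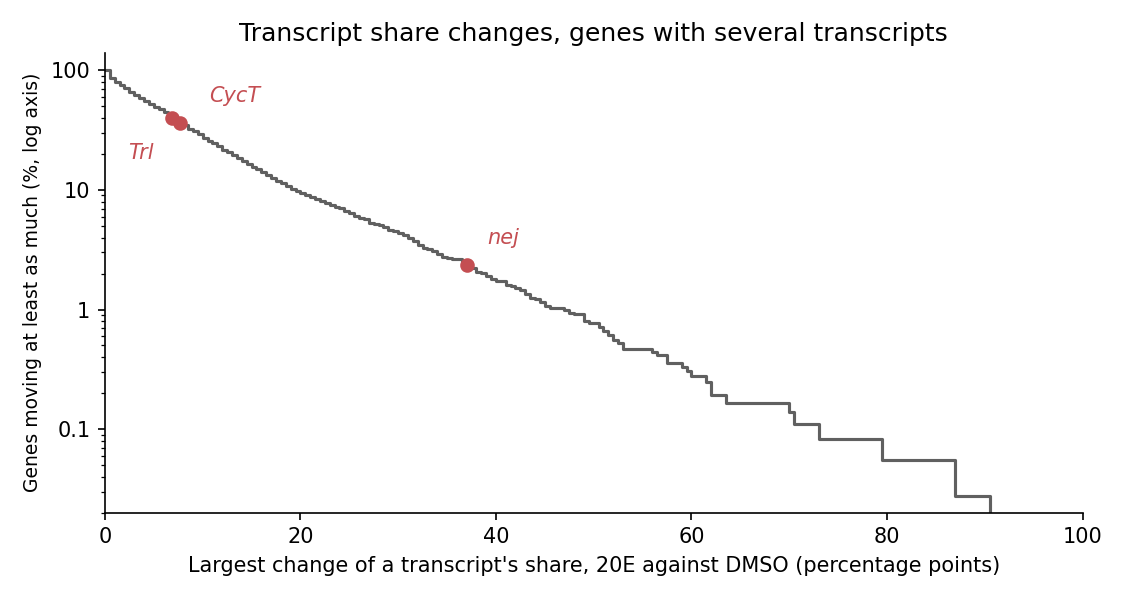
Percentage of the 3613 genes with several transcripts, on a log axis, in which the largest change of a transcript's share was at least the number of percentage points on the horizontal axis. The points mark Trl (6.91 points), CycT (7.65 points) and nej (37.1 points), which 40.2%, 36.4% and 2.35% of these genes matched or exceeded.

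In CycT the leading transcript FBtr0333124 stood at 28.4 FPKM in DMSO against 25.0 FPKM in 20E, or 62.1% and 54.4% of the gene. FBtr0075206, from a start 1957 bases downstream, was at 10.1 and 11.0 FPKM, and FBtr0333125 at 7.21 and 8.28 FPKM. FBtr0075205 was listed at 0 in DMSO and at 1.68 FPKM in 20E. This last transcript lies wholly within the exons of FBtr0333124, with no base of its own. FBtr0333124 has none either, as all its 5810 bases are also exonic in FBtr0333125, which has 231 of its own. The division between FBtr0333124 and FBtr0333125, which encode different forms, therefore rests on few bases apart from the splice junctions. The part of this overlap in the shares was not tested. The models encode 2 forms, one of 1097 amino acids and one of 884 that lacks 639 coding bases. The longer form made up 62.1% in DMSO and 58.1% in 20E, and the shorter one 37.9% and 41.9%. By start site the division was steadier still, with 77.9% and 76.1% from the first start. A difference of 7.65 points was matched or exceeded by 36.4% of the 3613 genes, so CycT was unexceptional.

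Trl has 9 listed transcripts, of which 7 were above 0 in DMSO and 7 in 20E. The leading one, FBtr0075708, stood at 54.4 FPKM in DMSO against 60.8 FPKM in 20E, or 55.4% and 57.9%. FBtr0075705 showed the largest difference in share, from 17.4 FPKM (17.7%) to 11.3 FPKM (10.8%), and FBtr0333046 went the other way, from 11.3 FPKM (11.5%) to 16.6 FPKM (15.9%). FBtr0075706 was at 10.5 and 8.26 FPKM and FBtr0100444 at 3.99 and 5.55 FPKM. FBtr0075703 was listed at 0 in DMSO and at 2.01 FPKM in 20E, FBtr0075704 at 0.0899 FPKM in DMSO and 0 in 20E, and FBtr0333045 at 0 in both. FBtr0075708, FBtr0075705 and FBtr0333046 have no base of their own and lie wholly within the exons of FBtr0075706, which has 146. The part of this overlap in the Trl shares, also when pooled by form or start site, was not tested.

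GAGA factor is known for forms that share the BTB domain and the zinc finger and differ at the C terminus. In the models the form of 519 amino acids, encoded by 4 transcripts, made up 70.3% of Trl FPKM in DMSO and 71.0% in 20E. The form of 582 amino acids was at 17.7% and 12.7%, that of 623 at 11.5% and 15.9%, and that of 567 at 0.529% and 0.425%. The division between the form of 519 residues and the longer forms thus differed by 0.773 points between the conditions. Against the form of 519, those of 582 and 623 both gain 614 coding bases, and they lack 425 and 302 of its bases. The forms of 582 and 623 thus differ from each other in bases that the form of 519 also has. Where these lie along the protein was not examined. By start site 6 transcripts share 1 start, and they made up 82.3% in DMSO and 87.3% in 20E.

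Among the other listed pathway genes, 22 have several transcripts and passed the same limit on level. In 6 of them, or 27.3%, a share moved by 10 points or more, close to the 27.5% of all such genes, and in 1 the leading transcript differed. The largest shift was 16.2 points, in Eaf, under that of nej.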

How the data were processed

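The authors deposited FPKM values per gene, with confidence bounds and a status, and FPKM values per transcript, with 1 column per condition. How the 2 libraries entered a column, the RNA-seq aligner, the caller and the build are not given in the sources used here. Headers match the output of Cuffdiff. The submitters' processing notes name bcl2fastq 2.17.1.14, Bowtie2 2.3.4.2, deepTools 3.0.2, TopHat2, dm6 and dm3 with no role. The transcript table also holds the authors' fold changes, test statistics, p-values and q-values, which were not used.

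Changes were computed as log2 of the ratio of FPKM + 1 for genes at 1 FPKM or more in a condition (Python 3.11.15, pandas 2.3.3, NumPy 2.4.6, Matplotlib 3.10.9). The calculation was tried on simulated data with planted changes, no noise and bounds of no width, which tests its arithmetic only. Transcript models came from BDGP6 by transcript ID, where all 24 matched. Whether the deposited values were estimated on the same models is not given. Lengths, starts, ends, exonic bases and coding forms of transcripts are therefore those of BDGP6 only. No sequence was read, since deposited positions differ from that build, and the planned promoter search was not run. Depth is not stated. Low FPKM values of genes with 1 transcript were fitted as multiples of a fixed step. The step and the bases taken off the length, 200 in DMSO and 180 in 20E, were searched for the best fit. With these, 93.8% of 438 values in DMSO and 90.3% of 373 in 20E fell within 0.15 of a multiple. As the search maximised these percentages, they are no test of the fit. The DMSO step was 1.51 times that of 20E, a rough relative depth only.

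The members and lists were chosen with earlier results of these data known. Named genes were the members, the 3 highest and 3 lowest changes among pathway genes, the highest and lowest level of each complex, 5 known 20E targets and the 3 genes nearest to the NELF median. Marker genes and genes in the members' loci were added as checks.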

Additional observations from a re-analysis of the deposited data

How the results depend on the processing

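No paired analysis was possible because the tables give 1 value per condition and no replicate numbers. Leaving out a replicate was not run for the same reason. Pooling by the start site of the deposited table was not run, as the column for it is blank there. Pooling by start site, 3′ end and coding form of BDGP6 was chosen after seeing the data, and the first 2 of these could not change the shift in nej, whose leading transcript is alone in both classes.

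Of 48 alternative values, 45 stayed within the deposited bounds, or within 1.5 times for counts. This covers the counts of 0 for members and for pathway genes with bounds apart or past a fold limit, under every pseudocount, ratio and scaling tried, and the log2 changes of single members, which moved by at most 0.0087 with another pseudocount. Several of the 45 could not have moved. With 1 transcript per gene, the ratios within NELF and DSIF are the same by any transcript rule. A ratio of 2 cannot raise a count that is 0 at 1.5. As every listed pathway gene reached 1 FPKM, their count past 1.5-fold could not change without the filter on low values. At these levels another pseudocount could move a log2 change only slightly, so those values were a weak check. The 3 exceptions concern transcripts. With the highest transcript of each gene only, the ratio of CycT to Cdk9 fell from 1.73 to 1.07 in DMSO, and from 1.79 to 0.975 in 20E, where it turned direction, because Cdk9 has 1 transcript and CycT has 4. With a limit of 5 percentage points the count of members whose shares moved rose from 1 to 3, beside 49.7% of all genes with several transcripts. Levels of transcripts under 1 FPKM and shares that rest on few bases are the values that these tables leave least certain.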
